A study of Mus musculus with 12 samples.

Results

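The 10 genes described here are classical hypoxia-inducible genes and their own controllers: Hif1a, Egln1, Egln3, Vegfa, Adm, P4ha1, P4ha2, Ndrg1, Bnip3 and Ankrd37. They were chosen by name, by a rule that sets no threshold on their values, and all 10 were found among the 54392 gene rows of the deposited table. Their RNA was sequenced in NIH-3T3, a mouse fibroblast line that divides without limit in culture, from total RNA, with 3 libraries in each of 4 groups. WT carries intact Crls1 (genotype Crls1WT), and KO1, KO2 and KO3 (Crls1KO1, Crls1KO2 and Crls1KO3) are clones in which Cas9 and a guide RNA were directed at Crls1, the gene for cardiolipin synthase. Cardiolipin is a lipid of the inner mitochondrial membrane, and the study asked what its loss does to protein synthesis in mitochondria. All groups were grown in the same medium, with added pyruvate and uridine, in humidified air with CO2, and no low-oxygen treatment is named.

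Each clone grew from 1 sorted cell, so what the edit did and what that founder cell brought with it cannot be told apart within a clone. The labels do not say whether WT cells were also transfected and sorted, or whether the 3 libraries of a group came from separate cultures. The p-values therefore measure only the spread between libraries, which may be technical. In bulk RNA, fewer cells expressing a gene and less RNA per cell cannot be told apart. No protein was measured, so the values say nothing of HIF protein.

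Hypoxia-inducible factor (HIF) is a pair of proteins, an oxygen-controlled alpha subunit such as the product of Hif1a and the stable partner Arnt. When oxygen is present, prolyl hydroxylases encoded by the Egln genes mark the alpha subunit, the Vhl ubiquitin ligase binds the mark, and the subunit is degraded. These hydroxylases need oxygen, iron and the mitochondrial metabolite 2-oxoglutarate. When the mark is missing, HIF enters the nucleus, binds short sites with the core letters ACGTG or GCGTG near its target genes, and raises their transcription. The targets promote vessel growth (Vegfa, Adm), collagen processing (P4ha1, P4ha2), removal of mitochondria (Bnip3) and, through Egln1 and Egln3, the decay of HIF itself.

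The core letters were sought in the bases just upstream of RefSeq transcription starts of the members. RefSeq windows (GRCm38.p6) of 250 bases before the transcription start matched 9 of the 10 members, all but Ndrg1. Shown are 5 windows without exon overlap, all such windows but that of Hif1a. They lie at chr7:110627407-110627656 (Adm, plus strand), chr12:54203875-54204124 (Egln3, minus strand), chr10:59323046-59323295 (P4ha1, plus strand), chr11:54100674-54100923 (P4ha2, plus strand) and chr17:46032378-46032627 (Vegfa, minus strand). Each is written 5′ to 3′ on the gene's strand. Capitals mark ACGTG or GCGTG on either strand, so that a match on the other strand reads CACGT or CACGC.
Adm: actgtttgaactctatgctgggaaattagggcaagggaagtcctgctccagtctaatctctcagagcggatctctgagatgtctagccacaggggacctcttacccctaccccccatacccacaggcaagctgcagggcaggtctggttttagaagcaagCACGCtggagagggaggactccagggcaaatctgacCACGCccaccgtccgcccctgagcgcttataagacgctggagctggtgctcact
Egln3: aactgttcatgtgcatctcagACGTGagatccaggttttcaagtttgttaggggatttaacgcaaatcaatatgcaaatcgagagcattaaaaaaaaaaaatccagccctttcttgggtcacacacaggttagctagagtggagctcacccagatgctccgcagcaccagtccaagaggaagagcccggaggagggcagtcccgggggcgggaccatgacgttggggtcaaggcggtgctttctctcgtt
P4ha1: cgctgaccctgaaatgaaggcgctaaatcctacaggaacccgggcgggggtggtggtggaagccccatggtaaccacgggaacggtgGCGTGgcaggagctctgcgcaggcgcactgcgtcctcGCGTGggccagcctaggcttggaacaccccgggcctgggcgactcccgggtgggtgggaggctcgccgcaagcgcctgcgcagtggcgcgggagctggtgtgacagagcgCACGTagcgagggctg
P4ha2: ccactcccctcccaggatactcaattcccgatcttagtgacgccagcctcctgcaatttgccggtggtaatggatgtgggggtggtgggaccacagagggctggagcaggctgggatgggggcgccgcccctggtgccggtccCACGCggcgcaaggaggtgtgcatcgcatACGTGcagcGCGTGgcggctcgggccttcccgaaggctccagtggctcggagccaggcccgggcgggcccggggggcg
Vegfa: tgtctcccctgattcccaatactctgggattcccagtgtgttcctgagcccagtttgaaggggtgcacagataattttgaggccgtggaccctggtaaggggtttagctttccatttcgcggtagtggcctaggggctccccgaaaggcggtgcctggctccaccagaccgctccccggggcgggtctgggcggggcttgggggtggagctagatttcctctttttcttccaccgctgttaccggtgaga
Adm held 2 matches, Egln3 held 1, P4ha1 and P4ha2 held 3 each, and the Vegfa window held 0. A second RefSeq start of Vegfa lies inside the gene, and its window held 2 and overlaps an exon by 218 bases. The windows of P4ha2, Hif1a and Ankrd37 also lie inside the annotated span of their gene, downstream of its outermost start. Of the members not shown, Egln1 held 2 matches, Hif1a 3, Ankrd37 4 and Bnip3 5, where CACGTG counts once on each strand. In all, 9 of the 10 member windows held a match, against 38.6% of all 32851 RefSeq windows. The members were picked as known HIF targets, so this share is a description. A match in letters is not a measured binding site, and its absence says only that these letters are not in that window.

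Every member was detected in every library, from 14.1 normalized counts for Ankrd37 to 9416 for Hif1a. A normalized count is the number of reads of a gene divided by the authors' size factor for that library. Per kilobase of exon in WT, the order of mean levels ran from Hif1a (1396) and P4ha1 (1301) through P4ha2 (576), Bnip3 (540.1), Adm (386), Vegfa (334) and Egln1 (297) to Egln3 (74.9), Ndrg1 (48.5) and Ankrd37 (24.7). In KO3 the same scale put Ndrg1 (964) and Vegfa (881) just behind Hif1a (1483) and P4ha1 (1413). Ndrg1 thus moved from near the bottom of the order in WT to near the top in KO3.

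**Figure D1:**
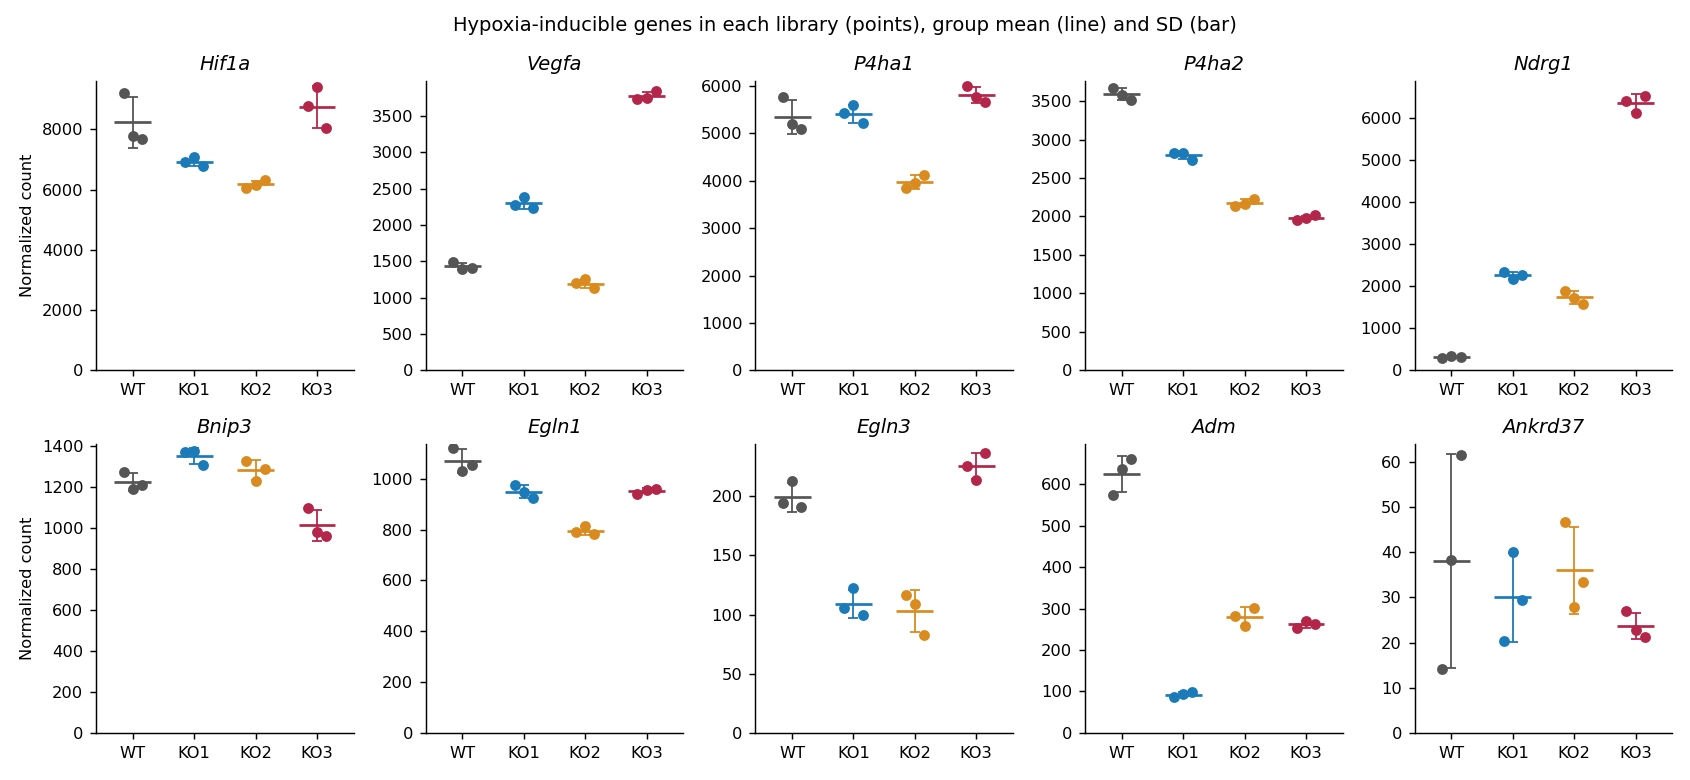
Normalized counts (linear axes from 0, own scale for each gene) of the 10 hypoxia-inducible genes in the 4 groups, with 1 point per library, a line at the group mean and a bar for the SD (n = 3). Ndrg1 is lowest in WT and highest in KO3, Adm is highest in WT, and the Vegfa groups are all separate.

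The clones did not share one pattern. Differences are given as clone minus WT on the log2(value + 1) scale, with the standard error (SE) and the Benjamini-Hochberg adjusted p of limma over 15073 genes, and a gene is said to rise or fall where that p is below 0.05. In KO1, 2 of the 10 members rose (Vegfa and Ndrg1) and 5 fell, while 26.9% of all genes tested rose and 25.4% fell. In KO2, 1 rose (Ndrg1) and 7 fell, against 29.9% and 30.5% of all genes. In KO3, 2 rose (Vegfa and Ndrg1) and 4 fell, against 26.8% and 27.3%. The median difference of the members was -0.16 in KO1, -0.42 in KO2 and -0.04 in KO3, where the median of all genes was 0.02, 0.00 and 0.00. Ndrg1 rose, and P4ha2, Adm and Egln1 fell, in all 3 comparisons, which share the WT libraries.

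Between clones, more members were higher in KO3 than in the other clones. KO3 minus KO1 gave 5 members higher and 2 lower (20.3% and 23.4% of all genes), and KO3 minus KO2 gave 6 higher and 2 lower (26.1% and 27.0%). KO2 minus KO1 gave 1 higher, Adm, and 5 lower (20.5% and 23.9%). The members' medians were 0.22, 0.38 and -0.21 in these comparisons, and those of all genes -0.01, -0.01 and -0.02. Without WT replicate 1, a library that stood apart from its group, 4 members rose in KO3, the added ones being Hif1a (0.17, adjusted p = 0.0241) and P4ha1 (0.17, adjusted p = 0.00774). Still 4 fell there, as Egln1 lost its call and Ankrd37 gained one (-1.01, adjusted p = 0.0204). Over all genes tested, leaving out 1 library at a time gave 3614 to 4164 higher in KO3. The 2 calls lower in KO3 than in KO2, P4ha2 and Bnip3, became 1 without KO2 replicate 3 or KO3 replicate 1, and relative to neighbouring genes.

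**Figure D2:**
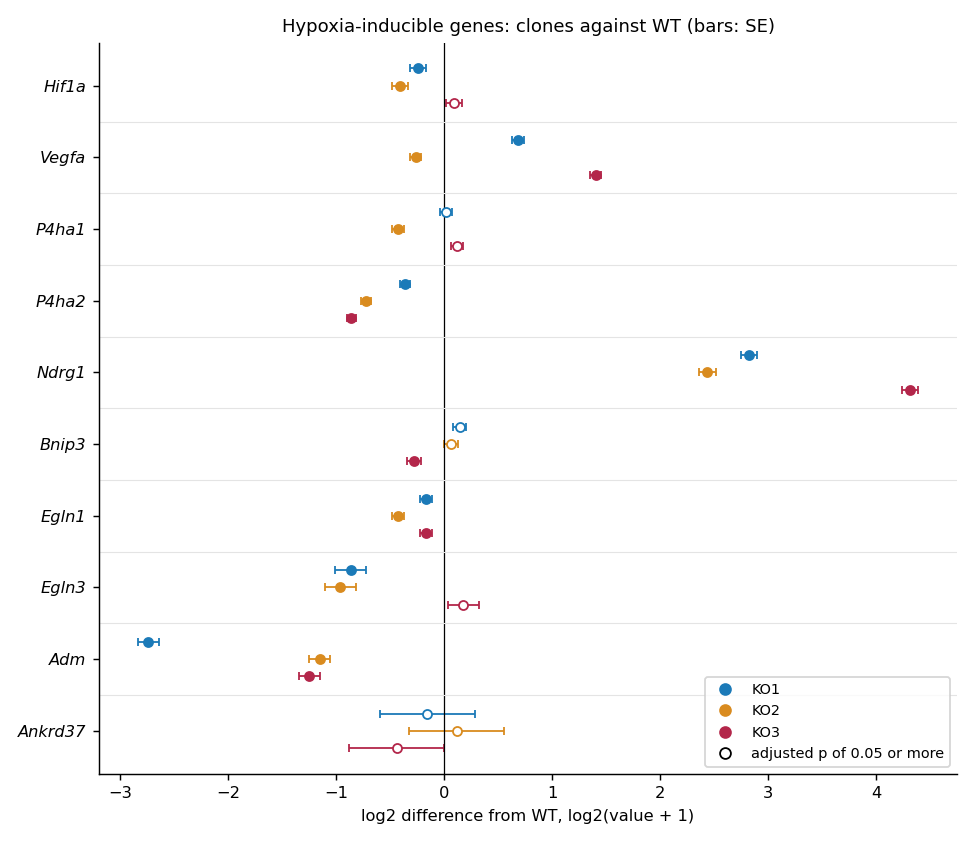
Difference of each clone from WT on the log2(value + 1) scale (horizontal axis) for the 10 genes (vertical axis), with bars for the SE of the limma fit; open circles have an adjusted p of 0.05 or more. Ndrg1 is to the right of 0 in all clones, Adm, P4ha2 and Egln1 are to the left, and Vegfa is on different sides.

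Over all genes, WT replicate 1 was the shallowest library with 32929242 reads, and KO3 replicate 2 the deepest with 42211807. Crls1, the targeted gene, was at 739.7 to 873 normalized counts in the WT libraries, 209 to 213 in KO1, 336 to 374 in KO2 and 363 to 408 in KO3. These levels set WT apart from the clones, and KO1 apart from KO2 and KO3. KO2 and KO3 overlapped, so Crls1 cannot check their labels against each other. As a chi-square per degree of freedom over genes, WT replicate 1 stood 57.6 and 60.5 away from the other WT libraries, which were 18.6 apart. Libraries of 1 clone were 4.89 to 27.1 apart, and none agreed within sampling noise. All 10 fibroblast markers had a mean of at least 10, and Fn1 and Col1a2 made up most of their summed level, which overlapped between WT (834358 to 915178) and each clone. Single fibroblast markers differed, with means in WT, KO1, KO2 and KO3 of 148, 7939, 884 and 3664 for Col3a1, 3937, 15597, 5428 and 33747 for Fbln2, and 7355, 9432, 26299 and 7582 for Pdgfra. Of 7 leukocyte markers 3 had such a mean, with sums of 542 to 716 in WT and 117 to 274 in the clones, mostly Csf1r in WT (mean 531). Of 6 epithelial markers 2 did, with sums of 96.4 to 107 in WT and 186 to 371 in the clones, and Cldn4 was at 0 throughout. These went opposite ways, Cdh1 from a mean of 17.8 in WT to 349.7, 185 and 307 in KO1, KO2 and KO3, and Krt8 from 84.8 to 5.3, 9.6 and 4.4. The part of these markers in the results was not tested.

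Hif1a (chromosome 12, 73901375 to 73947530, plus strand, GRCm38), the oxygen-controlled alpha subunit, was lower in KO1 and KO2 than in WT. Its normalized counts were 9206, 7796 and 7692 in WT, 6932, 7067 and 6769 in KO1, 6045, 6162 and 6305 in KO2, and 8780.1, 9416 and 8030.0 in KO3. The KO1 and KO2 libraries all lay below the lowest WT library, while KO3 overlapped WT. Hif1a fell by 0.25 in KO1 (SE 0.07, adjusted p = 0.0135) and by 0.41 in KO2 (adjusted p = 3.53e-04), and the difference in KO3 was 0.09 (adjusted p = 0.328). KO3 was higher than KO2 by 0.50 (adjusted p = 9.39e-05) and than KO1 by 0.33 (adjusted p = 0.00261). The KO1 call was lost under quantile normalization (-0.14, adjusted p = 0.0543). Genes next to a member can move with it, so each difference was also taken relative to the median of the 10 nearest tested genes on each side, an alternative chosen after seeing the data. On that scale Hif1a was at -0.14 in KO1 (adjusted p = 0.132), and the higher level in KO3 than in KO1 was 0.06 (adjusted p = 0.591).

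Egln1 (chromosome 8, 124908587 to 124949324, minus strand) encodes PHD2, the main hydroxylase that marks HIF for decay in most cells, and all of its clone libraries lay below all of its WT libraries. WT libraries held 1121, 1031 and 1055 normalized counts, KO1 975, 949 and 926, KO2 790.2, 815 and 782, and KO3 941, 957 and 961. KO2 lay below all other libraries, and KO1 and KO3 overlapped. The fall in KO2 was 0.42 (SE 0.06, adjusted p = 2.98e-05), where it fell by 0.17 in KO1 (adjusted p = 0.0218) and, in KO3, by 0.16 (adjusted p = 0.0243). KO2 was lower than KO1 by 0.25 (adjusted p = 0.00256), and KO3 was higher than KO2 by 0.26 (adjusted p = 0.00168), a call lost relative to neighbouring genes (0.17, adjusted p = 0.0880). The calls against WT in KO1 and KO3 were small and not stable. The KO1 call was lost without WT replicate 1 (-0.14, adjusted p = 0.0568), KO1 replicate 2 (adjusted p = 0.0553) or KO1 replicate 3 (adjusted p = 0.0787), and relative to neighbouring genes it was -0.03 (adjusted p = 0.773). The KO3 call was lost without WT replicate 1 (-0.13, adjusted p = 0.0638) or KO3 replicate 1 (-0.16, adjusted p = 0.0703), and relative to neighbours (-0.19, adjusted p = 0.0619).

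Egln3 (chromosome 12, 54178981 to 54203860, minus strand) encodes PHD3, a hydroxylase whose RNA is strongly raised by HIF in many cells. WT libraries held 194, 213 and 191 normalized counts, KO1 106, 122 and 99.3, KO2 117, 109 and 82.6, and KO3 226, 214 and 237. KO1 and KO2 overlapped each other and lay well below WT, and the lowest KO3 library was just above the highest WT library. Egln3 fell by 0.87 in KO1 (SE 0.14, adjusted p = 2.65e-04, 1.82-fold lower) and by 0.96 in KO2 (adjusted p = 8.33e-05, 1.95-fold lower). In KO3 it differed from WT by 0.18 (adjusted p = 0.314). KO3 was higher than KO1 by 1.04 (adjusted p = 8.63e-05) and than KO2 by 1.14 (adjusted p = 2.64e-05). The related Egln2, which is not usually raised by HIF, rose in KO1 (0.23, adjusted p = 0.013) and KO2 (0.26, adjusted p = 0.00499), and its difference in KO3 was 0.08.

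Vegfa (chromosome 17, 46016993 to 46032369, minus strand), the growth factor that makes endothelial cells sprout, was the one member that rose in some clones and fell in another. WT libraries held 1486, 1397 and 1408 normalized counts, KO1 2268, 2387 and 2229, KO2 1195, 1249.6 and 1128, and KO3 3733, 3752 and 3844. No 2 groups overlapped, with KO2 lowest, then WT, KO1 and KO3. Vegfa rose by 0.68 in KO1 (SE 0.05, adjusted p = 4.74e-07, 1.60-fold) and, in KO3, by 1.40 (adjusted p = 5.63e-10, 2.64-fold). It fell by 0.26 in KO2 (adjusted p = 9.46e-04, 1.20-fold lower). KO3 was 3.17-fold higher than KO2 (1.67, adjusted p = 2.59e-10), and KO2 was lower than KO1 by 0.95 (adjusted p = 5.03e-08). The KO2 direction did not hold relative to nearby genes. The neighbours of Vegfa had a median of -0.47 in KO2, and relative to it Vegfa was 0.21 higher than in WT (adjusted p = 0.0196), while KO1 and KO3 kept their direction.

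Adm (chromosome 7, 110627661 to 110629820, plus strand) encodes the precursor of adrenomedullin, a peptide that relaxes vessels and is among the most readily induced HIF targets. It fell in all 3 clones, opposite to Vegfa in KO1 and KO3. Its normalized counts were 575, 638 and 660.2 in WT, 86.7, 92.9 and 98.4 in KO1, 281, 258 and 302 in KO2, and 254, 270.3 and 262 in KO3. Every clone library lay below every WT library, KO1 lay below all others, and KO2 and KO3 overlapped. Adm fell by 2.74 in KO1 (SE 0.10, adjusted p = 3.54e-10, 6.68-fold lower), by 1.15 in KO2 (adjusted p = 7.16e-07, 2.22-fold lower) and, in KO3, by 1.25 (adjusted p = 3.80e-07, 2.37-fold lower). KO1 was lower than KO2 and KO3, with differences of 1.59 (KO2 minus KO1, adjusted p = 1.11e-07) and 1.49 (KO3 minus KO1, adjusted p = 1.93e-07).

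P4ha1 (chromosome 10, 59323296 to 59373304, plus strand) encodes a catalytic subunit of the collagen prolyl 4-hydroxylase, the enzyme that stabilises the collagen triple helix. It was lowest in KO2. Its normalized counts were 5760.2, 5195 and 5103 in WT, 5424, 5607 and 5228 in KO1, 3851, 3949 and 4128 in KO2, and 5999, 5773 and 5664 in KO3. The KO2 libraries lay below all others, and KO1 and KO3 each overlapped WT. P4ha1 fell by 0.43 in KO2 (SE 0.06, adjusted p = 2.83e-05), and the differences were 0.02 in KO1 (adjusted p = 0.793) and 0.12 in KO3 (adjusted p = 0.0855). The uncalled differences did not have a fixed sign. Under quantile normalization P4ha1 rose in KO1 (0.15, adjusted p = 0.00906) and KO3 (0.19, adjusted p = 0.00229), and relative to its neighbours it fell in KO3 (-0.22, adjusted p = 0.00561).

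P4ha2 (chromosome 11, 54100095 to 54131665, plus strand) encodes another catalytic subunit of the same enzyme, and it fell in all 3 clones. WT libraries held 3675, 3586 and 3515 normalized counts, KO1 2821, 2824 and 2740.4, KO2 2139, 2160.0 and 2228, and KO3 1949.9, 1976 and 2013. The groups did not overlap, in the descending order WT, KO1, KO2 and KO3. P4ha2 fell by 0.36 in KO1 (SE 0.04, adjusted p = 1.85e-05, 1.28-fold lower), by 0.72 in KO2 (adjusted p = 2.98e-08, 1.65-fold lower) and, in KO3, by 0.86 (adjusted p = 5.63e-09, 1.81-fold lower). KO3 was lower than KO2 by a small margin (-0.14, adjusted p = 0.0178), a call lost without KO2 replicate 3 (-0.12, adjusted p = 0.0615) or KO3 replicate 1 (-0.13, adjusted p = 0.0612). That margin relative to neighbouring genes was -0.05 (adjusted p = 0.488).

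Ndrg1 (chromosome 15, 66929318 to 66969640, minus strand) encodes a cytoplasmic protein induced by hypoxia, iron loss and several other stresses and by differentiation. It rose in every clone, and most in KO3. Libraries held 299, 349 and 312 normalized counts (WT), 2345, 2166 and 2261 (KO1), 1896, 1726 and 1582 (KO2), and 6415, 6129 and 6535 (KO3). No groups overlapped, and the lowest clone library was several times the highest WT library. Ndrg1 rose by 2.82 in KO1 (SE 0.08, adjusted p = 4.23e-11, 7.05-fold), by 2.44 in KO2 (adjusted p = 1.16e-10, 5.41-fold) and, in KO3, by 4.31 (adjusted p = 1.81e-12, 19.9-fold). Of the 15073 genes tested, 752, 694 and 252 had a larger absolute difference in KO1, KO2 and KO3. KO3 was 2.82-fold higher than KO1 (adjusted p = 2.17e-08) and 3.67-fold higher than KO2 (adjusted p = 1.69e-09). KO2 was below KO1 by 0.38 (adjusted p = 0.00136), a call lost relative to neighbouring genes (-0.20, adjusted p = 0.0667). For Ndrg1 the log2 fold changes in the authors' deposited table were 2.81, 2.43 and 4.31.

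The NDRG family has further members in the mouse. Ndrg2 had 0 reads in every library and was not detectable at this depth. Ndrg3 rose in KO1 (0.19, adjusted p = 0.0121) and KO2 (0.46, adjusted p = 1.20e-05), and its difference in KO3 was -0.05. Ndrg4 rose in KO1 (0.54, adjusted p = 3.29e-05) and KO2 (0.98, adjusted p = 1.26e-07) and fell in KO3 (-0.63, adjusted p = 7.36e-06), the clone in which Ndrg1 was highest. Of the 2, 1 was called higher in KO1 relative to neighbouring genes.

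Bnip3 (chromosome 7, 138890836 to 138909519, minus strand) encodes a mitochondrial outer-membrane receptor that draws the autophagy machinery to mitochondria. It was lower in KO3 and did not pass the test in the other clones. Its normalized counts were 1274, 1188 and 1208 in WT, 1368, 1374 and 1306 in KO1, 1326, 1229 and 1285 in KO2, and 1097, 978 and 959 in KO3. The KO3 libraries lay below all others, the KO1 libraries just above WT, and KO2 overlapped both. Bnip3 fell by 0.28 in KO3 (SE 0.06, adjusted p = 0.00284), and the differences were 0.14 in KO1 (adjusted p = 0.0814) and 0.07 in KO2 (adjusted p = 0.399). Without WT replicate 1, KO1 passed the test (0.17, adjusted p = 0.0476). The neighbours of Bnip3 had medians of 0.38, 0.31 and 0.21 in KO1, KO2 and KO3, and relative to them Bnip3 was lower than WT in KO1 (-0.24, adjusted p = 0.0389) and KO2 (-0.25, adjusted p = 0.0299), so the sign in these clones depends on the reference.

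Bnip3l, the close relative of Bnip3, rose in KO1 (0.37, adjusted p = 9.83e-04), KO2 (0.52, adjusted p = 4.62e-05) and KO3 (0.32, adjusted p = 0.00245). Of the 7 mitophagy receptors and regulators tested beside Bnip3, KO1 had 2 higher and 3 lower (26.9% and 25.4% of all genes). KO2 had 4 higher with 3 not passing (29.9% of all genes higher and 30.5% lower), and KO3 2 and 2 (26.8% and 27.3%). The medians were 0.07, 0.15 and -0.15. Leaving out WT replicate 1, KO1 had 2 and 2 (median -0.02), KO2 4 and 1, and KO3 2 and 3. KO1 and KO2 had 2 and 2 each relative to neighbouring genes (medians 0.05 and 0.06), and KO3 1 and 2. Pink1, the kinase that flags damaged mitochondria, ranged from 174 to 204 normalized counts in WT, 691 to 745 in KO1, 1062 to 1274 in KO2 and 605 to 733 in KO3. The rise was 1.93, 2.58 and 1.82 (adjusted p = 9.24e-09, 6.30e-10 and 1.18e-08). Fundc1, another receptor, fell in KO1 (-0.24) and KO3 (-0.47) and rose in KO2 (0.15, adjusted p = 0.0304). Bcl2l13 fell in KO1 (-0.47, adjusted p = 0.0416) and KO3 (-0.61, adjusted p = 0.0102), and its difference in KO2 was -0.43 (adjusted p = 0.0509). Its WT libraries held 6159, 3957 and 3781 normalized counts, so WT replicate 1, which stood apart from its group, widens these differences.

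Ankrd37 (chromosome 8, 45996902 to 46005707, minus strand), a small ankyrin-repeat gene known as a HIF target, was near the lower limit of detection. Its normalized counts were 14.1, 38.3 and 61.4 in WT, 20.3, 40.1 and 29.5 in KO1, 46.6, 27.8 and 33.4 in KO2, and 27.0, 22.8 and 21.3 in KO3, from 12 to 68 reads per library. All clones overlapped WT, whose own libraries spread the most. The differences were -0.16 in KO1, 0.12 in KO2 and -0.44 in KO3 (SE 0.44, adjusted p = 0.789, 0.839 and 0.421), and no difference was detectable at this depth. The KO3 difference was -1.01 without WT replicate 1 (adjusted p = 0.0204) and 0.01 without WT replicate 3. Ankrd37 shares 57 exonic bases with Ufsp2, a gene on the opposite strand with a mean of 2025 normalized counts, and 349 with the weakly expressed Lrp2bp (mean 15.4). No source used here gives whether the counting used strand, so reads of the pair cannot be told apart there.

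The genes that make, mark and bind HIF were called in both directions, as were genes over the whole table. Of the 15 in the list, 12 were tested. KO1 had 3 higher and 3 lower (26.9% and 25.4% of all genes), KO2 4 and 3 (29.9% and 30.5%), and KO3 1 and 3 (26.8% and 27.3%). The medians were 0.00, 0.11 and 0.04, and the counts without WT replicate 1 were 4 and 3, 6 and 4, and 2 and 4 (medians -0.04, 0.08 and -0.04). Relative to neighbouring genes they were 1 and 2, 5 and 2, and 1 and 4 (medians 0.09, 0.14 and -0.04), so the median had no fixed sign in KO1 and KO3. Cited2, which competes with HIF for its coactivators and is itself a HIF target, fell from a WT mean (± SD, n = 3 in each group) of 14305 ± 1572 normalized counts to 7894 ± 95.4 (KO1), 8069 ± 787 (KO2) and 6173 ± 344 (KO3). Its differences were -0.85, -0.82 and -1.21 (adjusted p = 4.48e-06, 4.18e-06 and 1.49e-07). The coactivator gene Ep300 rose in every clone (0.33, 0.44 and 0.42, adjusted p = 0.0148, 0.00189 and 0.00299). Vhl, the subunit that recognises hydroxylated HIF, rose in KO2 (0.47, adjusted p = 5.70e-05), where Eloc, its partner elongin C, fell (-0.36, adjusted p = 0.00745). Arnt, the stable HIF partner, fell in KO1 (-0.23, adjusted p = 0.0391) and differed by -0.13 in KO2 and -0.19 in KO3. In WT Arnt was at 5020, 4103 and 3768 normalized counts, so WT replicate 1 widens these differences. Its relative Arnt2 fell in KO1 (-0.62, adjusted p = 2.99e-05) and KO3 (-0.26, adjusted p = 0.014). Epas1, which encodes the other main alpha subunit, had 0 to 1 read per library.

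The ligands and receptors of the VEGF and adrenomedullin pathways moved in both directions. Of the 14 listed besides Vegfa and Adm, 9 were tested. KO1 had 4 higher and 1 lower (26.9% and 25.4% of all genes), KO2 3 and 3 (29.9% and 30.5%), and KO3 1 and 5 (26.8% and 27.3%). The medians were 0.33, -0.10 and -0.37. Without WT replicate 1 the genes called higher became 4 in KO2 and 2 in KO3. On the scale relative to neighbours, KO1 had 3 and 1, KO2 3 and 4, and KO3 1 and 5. Vegfd, a ligand of lymphatic vessels, rose in every clone (1.01, 1.52 and 0.60, adjusted p = 5.91e-09, 1.62e-10 and 5.89e-07). Nrp2, a VEGF co-receptor, fell from a WT mean (± SD, n = 3 in each group) of 7028 ± 626 normalized counts to 2025 ± 60.8 (KO1), 1082 ± 77.6 (KO2) and 4954 ± 129.9 (KO3) (-1.79, -2.70 and -0.50, adjusted p = 7.20e-10, 2.85e-11 and 5.79e-05). Its relative Nrp1 rose in KO1 (0.38, adjusted p = 0.00101) and KO2 (0.54, adjusted p = 4.70e-05), and its difference in KO3 was 0.18. The adrenomedullin receptor is Calcrl joined to a Ramp protein. Ramp3 rose in KO1 (0.85, adjusted p = 4.05e-06) and KO2 (0.52, adjusted p = 2.03e-04) and fell in KO3 (-0.37, adjusted p = 0.00275), and Calcrl fell in KO3 (-0.92, adjusted p = 3.75e-04). Kdr, the main VEGF receptor of endothelium, had 0 to 2 reads, and Adm2, the relative of Adm, also 0 to 2. Of 7 endothelial markers 4 had a mean of at least 10, and the summed level of the list was 29.0 to 41.5 in WT, 194 to 246 in KO1, 523 to 609 in KO2 and 32.5 to 89.5 in KO3. Most of it was Cdh5 in KO1 (mean 164, against 16.4 in WT) and Tie1 in KO2 (mean 500.3, against 2.5 in WT), and the other 5 had group means of at most 33.5. The part of these markers in the result was not tested.

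Most other genes of collagen modification fell in KO3, where P4ha2 fell and P4ha1 was not called. In KO1 and KO2, where P4ha2 also fell, they were called in both directions. Of 11 listed besides P4ha1 and P4ha2, 10 were tested. KO1 had 3 higher and 4 lower (26.9% and 25.4% of all genes), and KO2 2 and 4 (29.9% and 30.5%). In KO3 9 were lower (27.3% of all genes). The medians were -0.07, -0.08 and -0.62. Without WT replicate 1, 8 fell in KO3. Relative to neighbouring genes, KO1 had 1 higher and 2 lower, KO2 2 and 2, and in KO3 8 were lower. Crtap, a scaffold of the prolyl 3-hydroxylase complex, fell in every clone (-0.99, -1.06 and -1.50, adjusted p = 7.35e-04, 3.46e-04 and 2.44e-05). Plod2, a lysyl hydroxylase and HIF target, also fell in all (-0.27, -0.46 and -0.58), as did Ppib, a prolyl isomerase of the complex (-0.43, -0.38 and -0.61). P3h1, the catalytic subunit, fell in KO3 (-0.78, adjusted p = 3.06e-06), and P4ha3, the relative of the members, fell there too (-0.63, adjusted p = 1.16e-05). P3h3 fell in KO1 (-1.53) and KO3 (-1.43) and differed by 0.09 in KO2, while P3h4 rose in KO1 (0.96) and KO2 (0.85). Plod1, another lysyl hydroxylase, went opposite to Plod2 in 2 clones. It rose in KO1 (0.22, adjusted p = 0.00196) and KO2 (0.35, adjusted p = 4.53e-05) and fell in KO3 (-0.12, adjusted p = 0.0449).

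**Figure D3:**
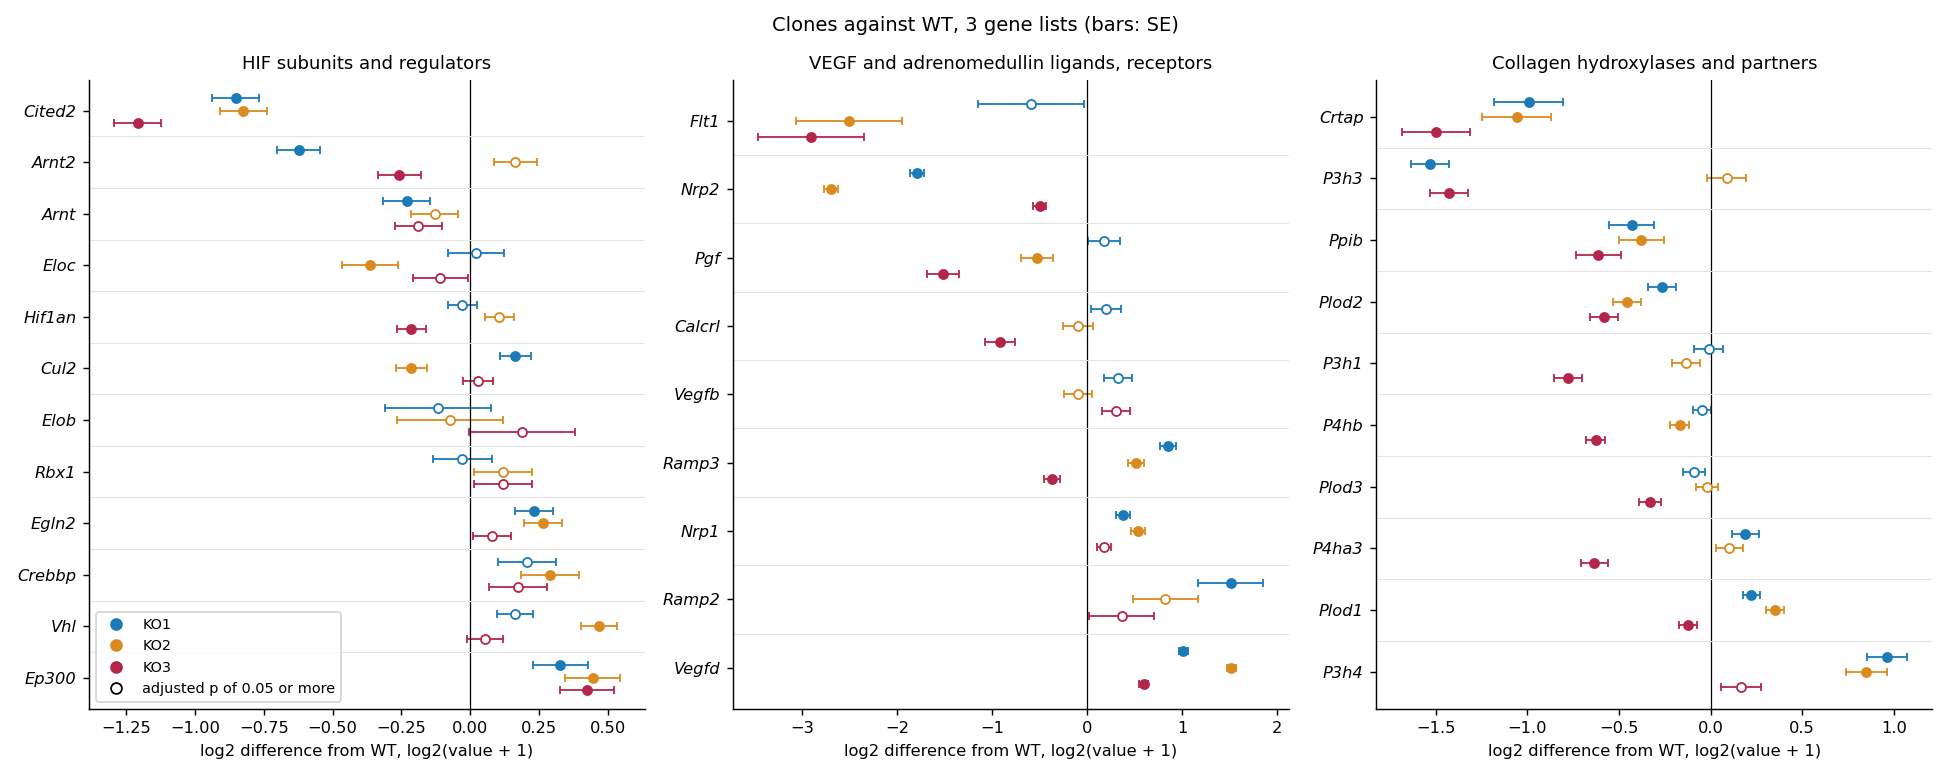
Difference of each clone from WT on the log2(value + 1) scale (horizontal axes, bars for SE) for the tested genes of 3 lists: HIF subunits and regulators, ligands and receptors of VEGF and adrenomedullin, and collagen hydroxylases. Open circles have an adjusted p of 0.05 or more; in the collagen panel 9 of 10 genes are called lower in KO3.

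Among 27 tested of 32 further HIF target genes, KO1 had 10 higher and 6 lower (26.9% and 25.4% of all genes). KO2 had 10 and 13 (29.9% and 30.5%), and KO3 9 and 9 (26.8% and 27.3%), with medians of 0.08, -0.18 and 0.10 in KO1, KO2 and KO3. Without WT replicate 1 these were 10 and 7, 11 and 14, and 11 and 8. Relative to neighbouring genes they were 8 and 4, 10 and 12, and 8 and 9, and the KO1 median was -0.02. Ero1a (Ero1l in the annotation), the oxidase that forms disulfide bonds in the endoplasmic reticulum, had the group order of Vegfa. Its libraries held 2600.2, 2505 and 2355 normalized counts in WT, 5253, 5226 and 5383 in KO1, 1431, 1657 and 1599 in KO2, and 14462, 15080.1 and 13569 in KO3, without overlap. It rose in KO1 (1.09, SE 0.06, adjusted p = 2.98e-08) and KO3 (2.53, adjusted p = 1.76e-11) and fell in KO2 (-0.67, adjusted p = 1.75e-06). Stc2, a secreted glycoprotein, fell in KO2 (-0.92, adjusted p = 6.46e-07), rose in KO3 (0.38, adjusted p = 0.00117) and differed by -0.12 in KO1. Ero1a and Stc2 were named by their p or difference in these same comparisons, and Angptl4 and Ddit4 were picked after their values were seen. None of them adds weight to a shared pattern. Angptl4 and Ddit4 fell in KO2 (-0.90 and -0.32) and rose in KO3 (0.32 and 0.31), and Angptl4 rose in KO1 (0.30, adjusted p = 0.0320). Of the 27 genes, 10 went the other way in KO2 and 9 in KO3.

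Several other targets moved in 1 direction in all clones. Tfrc, the transferrin receptor for iron uptake, fell (-1.11, -0.96 and -0.50), and so did Gbe1, the glycogen branching enzyme (-0.79, -0.51 and -0.70). Edn1, the vasoconstrictor endothelin, rose (1.99, 1.41 and 1.32, adjusted p = 1.09e-08, 1.87e-07 and 3.62e-07). Lox, which cross-links collagen, rose in KO1 (1.19) and KO2 (0.79) and differed by 0.13 in KO3. Zfp395 rose in KO1 (0.40) and KO2 (1.01) and differed by 0.10 in KO3.

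**Figure D4:**
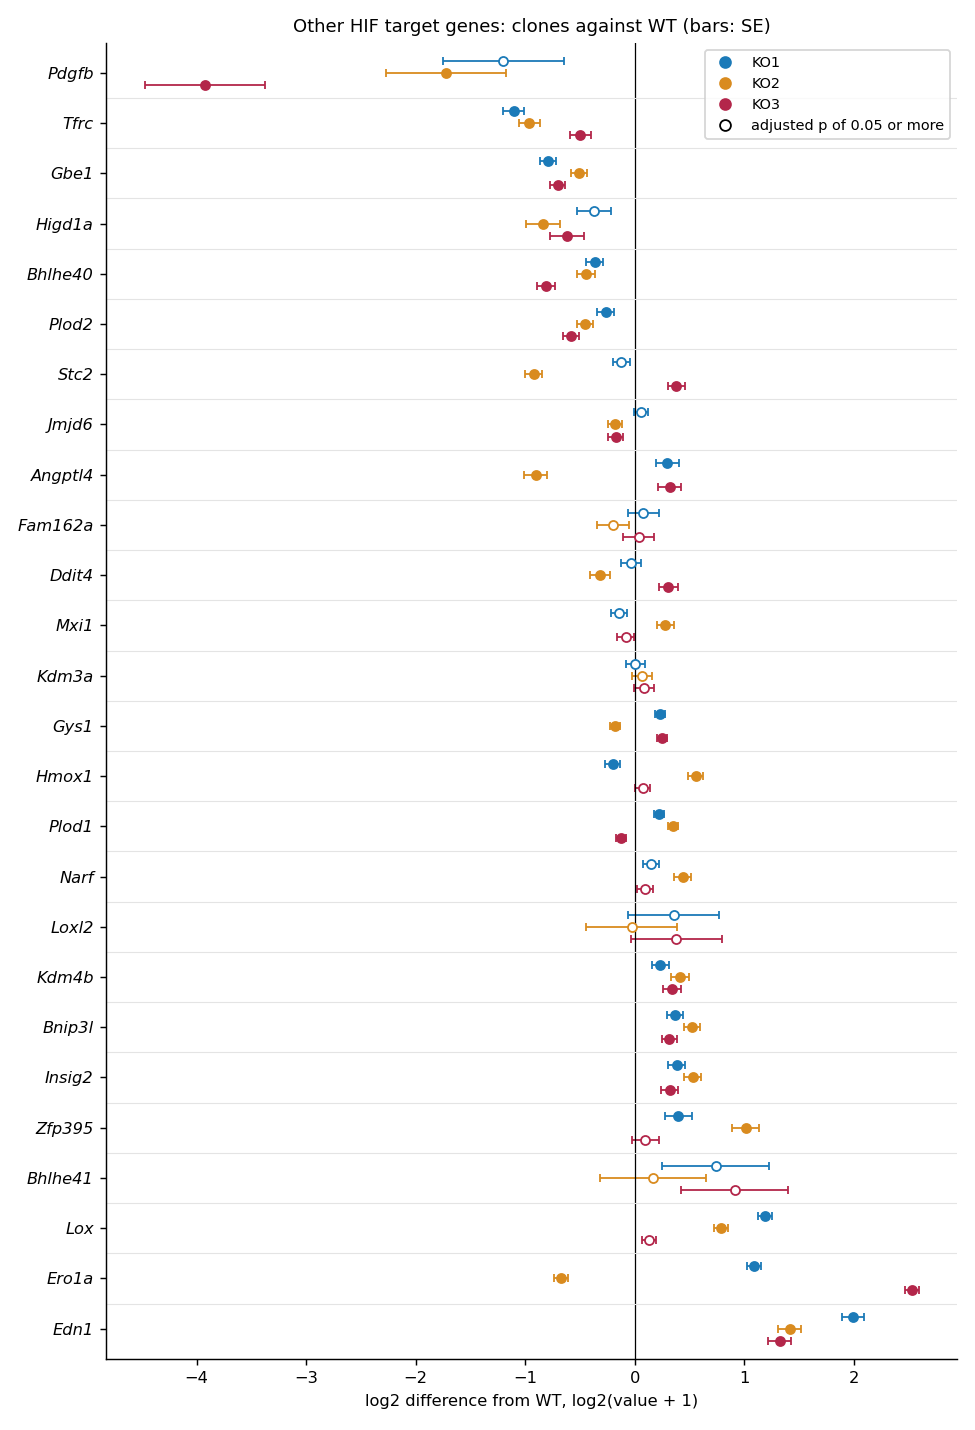
Difference of each clone from WT on the log2(value + 1) scale (horizontal axis, bars for SE) for 26 of the 27 further HIF target genes tested, ordered by their mean difference; open circles have an adjusted p of 0.05 or more. Tfrc and Gbe1 have all clones below 0, Edn1 has all clones above 0, and the KO2 and KO3 points of Ero1a lie on opposite sides of 0.

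Of 17 tested glycolysis genes that HIF is known to raise, KO1 had 3 higher and 8 lower (26.9% and 25.4% of all genes). KO2 had 4 and 10 (29.9% and 30.5%), and KO3 6 and 7 (26.8% and 27.3%). The medians were -0.17, -0.28 and 0.00. Leaving out WT replicate 1, KO1 had 4 and 7 (median -0.04) and KO3 7 and 7 (median 0.05). Relative to neighbouring genes, KO1 had 3 and 10, KO2 4 and 11, and KO3 4 and 6 (medians -0.24, -0.36 and -0.18). Ldha, which makes lactate from pyruvate, fell in every clone (-0.47, -0.79 and -0.53), as did Hk2, an inducible hexokinase (-0.51, -1.67 and -0.39). Gapdh fell in every clone as well (-0.81, -0.58 and -0.45). Hk1, another hexokinase, rose in KO2 (0.85, adjusted p = 3.11e-06) and KO3 (0.53, adjusted p = 2.02e-04) and differed by 0.12 in KO1. Pfkp rose in every clone (0.45, 0.26 and 0.70). Pfkl fell in KO2 (-0.58) and differed by -0.20 in KO1 and 0.05 in KO3. The 2 listed regulators of fructose 2,6-bisphosphate went apart, with Pfkfb4 lower (-1.23, -0.87 and -1.45) and Pfkfb3 higher (0.55, 1.18 and 1.30) in every clone.

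**Figure D5:**
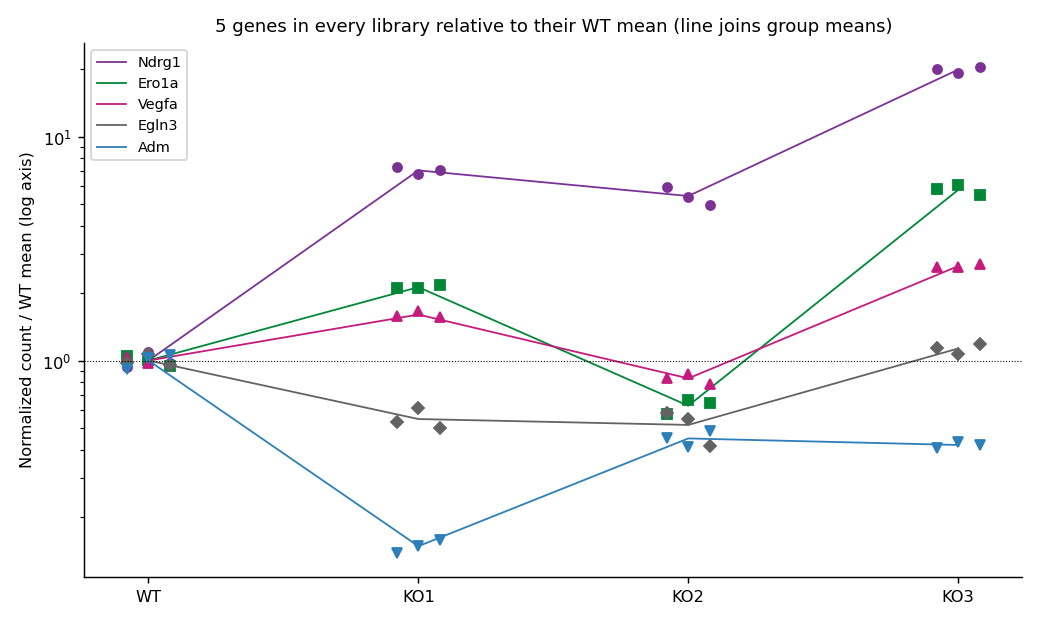
Normalized count of 5 genes in each library divided by the gene's WT mean (vertical log axis) in the 4 groups, with 1 point per library and lines joining the group means. Ndrg1 rises in all clones and Adm falls in all, while Vegfa and Ero1a are above 1 in KO1 and KO3 and below 1 in KO2.

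The genes whose profile was most like that of Ndrg1 were sought by Pearson correlation of log2(value + 1) over the 12 libraries, among 10398 genes with a mean of at least 100. The libraries share 4 group means, and 307 genes reached r of 0.9, so the values are a description. The closest was Jade2, with r = 0.992 and group means of 496, 916, 867 and 1359 in WT, KO1, KO2 and KO3. Next came Nfe2l2, which encodes the oxidant-response factor NRF2 (r = 0.989), with means of 2826, 5597, 5701 and 8934. The others were Kdm4a (r = 0.988), a histone demethylase, Klf4 (r = 0.986), a transcription factor, and Ugt1a7c (r = 0.985), a glucuronosyltransferase that shares exons with the other Ugt1a genes, so that its own level is uncertain. All 5 were lowest in WT and highest in KO3, as Ndrg1 was, which follows from how they were picked. No other member of the hypoxia-inducible genes was among these 5 of 10398 genes, which says little about the members.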

How the data were processed

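Random hexamers primed total RNA of NIH-3T3 cells after removal of cytoplasmic rRNA, per the labels' protocols. Cutadapt, Salmon 0.14.1, DESeq2 1.24.0 and the build GRCm38 are named in the submitters' processing notes, without their roles. The authors deposited a signal of normalized counts, in which 99.96% to 99.99% of a library's values are whole reads (tolerance 0.02) divided by 1 factor, and multiplying back gave the reads. They may be rounded Salmon estimates. The authors also deposited log2 fold changes and p-values of each clone against WT. Symbols and coordinates came from GENCODE M21 (35 of 54392 rows unmatched, 0 unused columns).

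Genes with at least 10 normalized counts in at least 3 libraries (15073) were tested on log2(value + 1) with limma 3.58.1 in R 4.3.3, trended prior, all 4 groups, 8 residual degrees of freedom, two-sided. The scripts were tested on simulated data. Fold changes understate those of low genes. Alternatives were other pseudocounts (0.5 and 5), filters (none and 50), TMM and quantile scaling, edgeR 4.0.16 and DESeq2 1.42.0 on the recovered reads, only the groups compared, a replicate block, each library left out and, chosen after seeing the data, the neighbours' median subtracted and the wider lists' counts without WT replicate 1.

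The members and lists were chosen with earlier results of these data known. Named besides the members are their paralogs and, from each list, up to 4 genes whose weakest adjusted p over the clones was smallest and up to 4 with the largest difference at a mean of at least 100. Nothing was left out for quality. A gene that the rule takes is not reported here, though it counts in its list. At these depths Ankrd37 rested on 12 to 68 reads.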

Additional observations from a re-analysis of the deposited data

Results flagged for a closer look

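Vegfa moved in opposite directions in different clones. It rose in KO1 and KO3 and fell in KO2, every library of each clone lay on its clone's side of all WT libraries, and the clones differed from each other by -0.95 (KO2 minus KO1) and 1.67 (KO3 minus KO2) on the log2 scale, both called. These comparisons share libraries, and each clone descends from 1 cell. Relative to neighbouring genes Vegfa in KO2 was at 0.21, while both differences between clones remained called in every alternative run.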

How the results depend on the processing

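Of 1374 member differences under alternative settings, 697 with 1 library left out and 625 under other settings kept their direction and their side of the threshold, while 11 and 15 turned in sign, and 7 and 10 lost a call. With the neighbours' median subtracted, members called higher in KO2 became 2 and members lower in KO3 minus KO2 became 1. The sign turned there for Vegfa in KO2 (0.21), P4ha1 in KO1 (-0.11) and KO3 (-0.22), Bnip3 in KO1 (-0.24) and KO2 (-0.25), Hif1a (-0.086) and Egln3 (-0.060) in KO3, and P4ha1 (-0.11) and Egln1 (-0.16) in KO3 minus KO1. Quantile normalization turned Ankrd37 in KO2 (-0.051) and KO3 minus KO1 (0.12), Egln3 in KO2 minus KO1 (0.025) and Adm in KO3 minus KO2 (0.016). edgeR (-0.084) and DESeq2 (-0.093) turned Ankrd37 in KO2. The cause was not tested. Limited to the groups compared, Egln1 lost its call in KO1 (adjusted p = 0.0623) and KO3 (adjusted p = 0.0700), and Hif1a in KO2 minus KO1 gained one (-0.17, adjusted p = 0.00629).

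With 1 library left out, members called higher in KO3 ranged from 2 to 4, and members lower in KO3 minus KO2 from 1 to 2. The sign turned for P4ha1 in KO1 (-0.014 to 0.073), Ankrd37 in KO1 (-0.73 to 0.30), KO2 (-0.45 to 0.57) and KO3 (-1.01 to 0.012), Egln3 in KO2 minus KO1 (-0.19 to 0.052) and Egln1 in KO3 minus KO1 (-0.013 to 0.024). Ankrd37 has no value under the filter of 50. Same-numbered libraries correlated at -0.22 to 0.12, with 2 of 18 pairs over 0.1 and the same number as best match in 14 of 36 checks, so the numbers were not taken as pairs. A replicate block gave 3896 higher and 3625 lower genes in KO1, 4371 and 4491 in KO2 and 3875 and 3990 in KO3, with every member count as before, in all 6 comparisons. edgeR and DESeq2 gave the same member counts. Depth limits Ankrd37, and unknown strandedness limits it where Ufsp2 overlaps.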
